A study of Mus musculus with 8 samples.

Results

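10 mouse genes of the Toll-like receptor system were followed in NK cells of the spleen, sorted by a reporter of choline acetyltransferase. They are the receptors Tlr1, Tlr2, Tlr3, Tlr4, Tlr6, Tlr7 and Tlr9, the receptor-like pair Cd180 and Ly86, and the adaptor Myd88. The members were taken by name from a fixed list, chosen with earlier results of these data known. They were matched through the RefSeq accession printed for each probe. All 10 genes were found, by 11 probes, among 20284 named genes on the array. RNA was measured in 4 pools of ChAT+ NK cells and 4 pools of ChAT- NK cells on 8 one-colour Agilent arrays. All cells came from mouse spleens, were enriched magnetically as NK cells and were then separated by ChAT-eGFP, a green reporter of the gene for the enzyme that makes acetylcholine. Each pool held the cells of 2 to 4 mice. The strain's full genotype, the sex and the age of the mice were not given in the sources used here, nor whether any mouse gave cells to more than 1 pool. The spread behind each p-value is that between these pools, which may be technical in part.

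Toll-like receptors are membrane proteins of immune cells that bind molecules common to microbes. TLR2 pairs with TLR1 or TLR6 at the cell surface to bind bacterial lipopeptides, and TLR4 binds lipopolysaccharide together with MD-2, the product of Ly96. TLR3, TLR7 and TLR9 sit in endosomes and bind double-stranded RNA, single-stranded RNA and CpG DNA. CD180, also called RP105, is a TLR4-like surface protein of B cells and myeloid cells that is held at the surface by MD-1, the product of Ly86. All of these receptors except TLR3 and CD180 signal through MyD88 to NF-kB. In the spleen, B cells, macrophages and dendritic cells are known for high levels of many of these genes, and NK cells for lower ones.

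Of the 9 members tested, Tlr1, Tlr6 and Tlr7 were higher in ChAT+ pools and 0 were lower (limma, Benjamini-Hochberg adjusted p under 0.05). Across all 13608 genes tested, 2.81% were called higher and 3.15% lower. Tlr1 rose 2.09-fold, Tlr6 1.81-fold and Tlr7 1.68-fold. The call of Tlr1 held whichever array was left out, whereas those of Tlr6 and Tlr7 did not. Tlr2, Tlr4, Tlr9, Cd180, Ly86 and Myd88 did not pass the test, and Tlr3 was too dim to be tested.

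Values are log2 signals relative to the 75th percentile of each array, so that 0 is the signal below which 75% of the probes of that array lie. Probes differ in how strongly they bind, so fold changes compare each probe with itself between groups. Between 50.2% and 63.2% of spots per array were well above background, and 0 were saturated. The Chat probe, the check of the sort, averaged 3.75 ± 0.25 in ChAT+ and 2.65 ± 0.34 in ChAT- pools (SD, n = 4 each), so ChAT- pools also carried signal. The 4 ChAT+ arrays shared slide 1 and scan 1 and the 4 ChAT- arrays slide 2 and scan 2, so slide, scan and reporter cannot be told apart in any value given here. In sorted pools, fewer cells of a type and less RNA per cell cannot be told apart either.

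Tlr1 and Tlr6 are neighbouring genes whose products share the partner TLR2, and both rose. Their windows around the annotated starts, 250 bases before to 50 bases after, are shown for that reason, from RefSeq's GRCm38.p6 annotation, each on the minus strand of chromosome 5 and written 5′ to 3′ along the gene. Capitals mark the letters GAGGAA, the core bound by the myeloid and B cell factor PU.1, or the pattern of the interferon response element (GAAA, any 2 bases, GAAA), found on either strand.
Tlr1, chr5:64933509-64933808: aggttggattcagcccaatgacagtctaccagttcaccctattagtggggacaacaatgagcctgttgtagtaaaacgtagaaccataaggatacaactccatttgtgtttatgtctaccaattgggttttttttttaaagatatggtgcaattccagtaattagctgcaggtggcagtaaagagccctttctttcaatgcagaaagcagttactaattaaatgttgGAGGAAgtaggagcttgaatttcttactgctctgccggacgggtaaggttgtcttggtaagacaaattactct
Tlr1, chr5:64932650-64932949: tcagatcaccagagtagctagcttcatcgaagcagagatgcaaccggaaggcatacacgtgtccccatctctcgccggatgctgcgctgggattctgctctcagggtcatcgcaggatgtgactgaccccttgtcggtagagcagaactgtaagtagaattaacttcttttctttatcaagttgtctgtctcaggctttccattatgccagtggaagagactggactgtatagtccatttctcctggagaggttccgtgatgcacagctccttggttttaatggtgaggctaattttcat
Tlr6, chr5:64959117-64959416: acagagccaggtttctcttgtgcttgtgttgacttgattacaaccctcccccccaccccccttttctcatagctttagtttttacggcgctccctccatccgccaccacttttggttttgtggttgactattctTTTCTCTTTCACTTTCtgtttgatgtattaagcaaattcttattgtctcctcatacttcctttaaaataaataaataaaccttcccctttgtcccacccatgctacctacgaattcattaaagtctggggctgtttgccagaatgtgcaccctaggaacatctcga
Tlr6, chr5:64959999-64960298: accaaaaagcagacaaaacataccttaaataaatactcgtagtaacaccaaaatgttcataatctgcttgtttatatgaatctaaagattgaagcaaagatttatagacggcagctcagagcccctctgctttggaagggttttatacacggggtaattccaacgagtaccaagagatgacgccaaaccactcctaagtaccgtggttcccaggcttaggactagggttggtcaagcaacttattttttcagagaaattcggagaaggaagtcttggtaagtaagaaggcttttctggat
The Tlr1 window that ends at 64933808 held GAGGAA starting 23 bases before the start. The Tlr6 window that ends at 64959416 held the interferon response pattern on the other strand at 2 overlapping places, 116 and 110 bases before the start. In the whole RefSeq table, 28.3% of 32851 windows held GAGGAA on either strand and 3.44% held the interferon response pattern. The 8 members with a window had 11 windows, of which 2 held GAGGAA, 2 held the interferon response pattern, 1 held the octamer ATGCAAAT (1.74% of all windows) and 3 held the kappaB pattern (GGG, any 5 bases, CC, in 50.8% of all windows). No window was matched for Tlr4 and Tlr7. A match of letters describes the window and shows no binding.

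Tlr1, the partner of TLR2 for triacylated lipopeptides, had the smallest adjusted p of the 9 members tested. It had log2 signals of 1.63, 1.59, 1.83 and 1.66 in ChAT+ pools 1 to 4, against 0.72, 0.46, 0.67 and 0.61 in ChAT- pools 1 to 4. The lowest ChAT+ pool stood 0.86 above the highest ChAT- pool, and the SD was 0.11 in both groups. The log2 fold change was 1.06 (SE 0.11, limma adjusted p = 0.00296), or 2.09-fold with a 95% interval of 1.74 to 2.49. With 1 array left out, its adjusted p ranged between 0.00795 and 0.0188.

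Tlr6, the partner of TLR2 for diacylated lipopeptides, had log2 signals of -0.44, -0.71, -0.09 and -0.16 in ChAT+ pools, against -0.99, -1.74, -1.02 and -1.09 in ChAT- pools. The groups did not overlap, with a gap of 0.28, and replicate 2 was the lowest pool in both. The log2 fold change was 0.86 (SE 0.21, limma adjusted p = 0.0472). Its call held without ChAT+ replicate 2 (adjusted p = 0.0387) and was lost without any of the other 7 arrays (up to 0.132, without ChAT+ replicate 3). Its adjusted p was 0.0818 under median scaling and 0.0593 under quantile normalization. The probes' sequences were not used here, so binding of a probe to the RNA of a related receptor was not tested.

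Tlr2, which forms the lipopeptide receptors with either partner, overlapped between the groups. It had log2 signals of 0.44, -0.31, 0.16 and 0.15 in ChAT+ pools, against 0.08, -0.86, -0.94 and -0.79 in ChAT- pools. ChAT- replicate 1 lay with the ChAT+ pools and above ChAT+ replicate 2, and the other ChAT- pools lay below all ChAT+ pools. The log2 fold change was 0.73 (SE 0.25, limma adjusted p = 0.117, 95% interval 0.17 to 1.30), and without ChAT- replicate 1 the difference was called (0.97, adjusted p = 0.0293). With same-numbered pools as blocks, limma also called it (adjusted p = 0.0197), though the sources do not say that the numbers pair the pools. The Tlr2 probe was printed on 10 spots of each array, whose SD within an array was 0.054 to 0.097, against an SD between arrays of 0.31 in ChAT+ and 0.48 in ChAT- pools. The 10 spots of ChAT- replicate 1 ranged between -0.05 and 0.23, all above the 10 spots of ChAT+ replicate 2, which ranged between -0.38 and -0.21. The overlap was therefore larger than the spread of repeated spots.

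**Figure D1:**
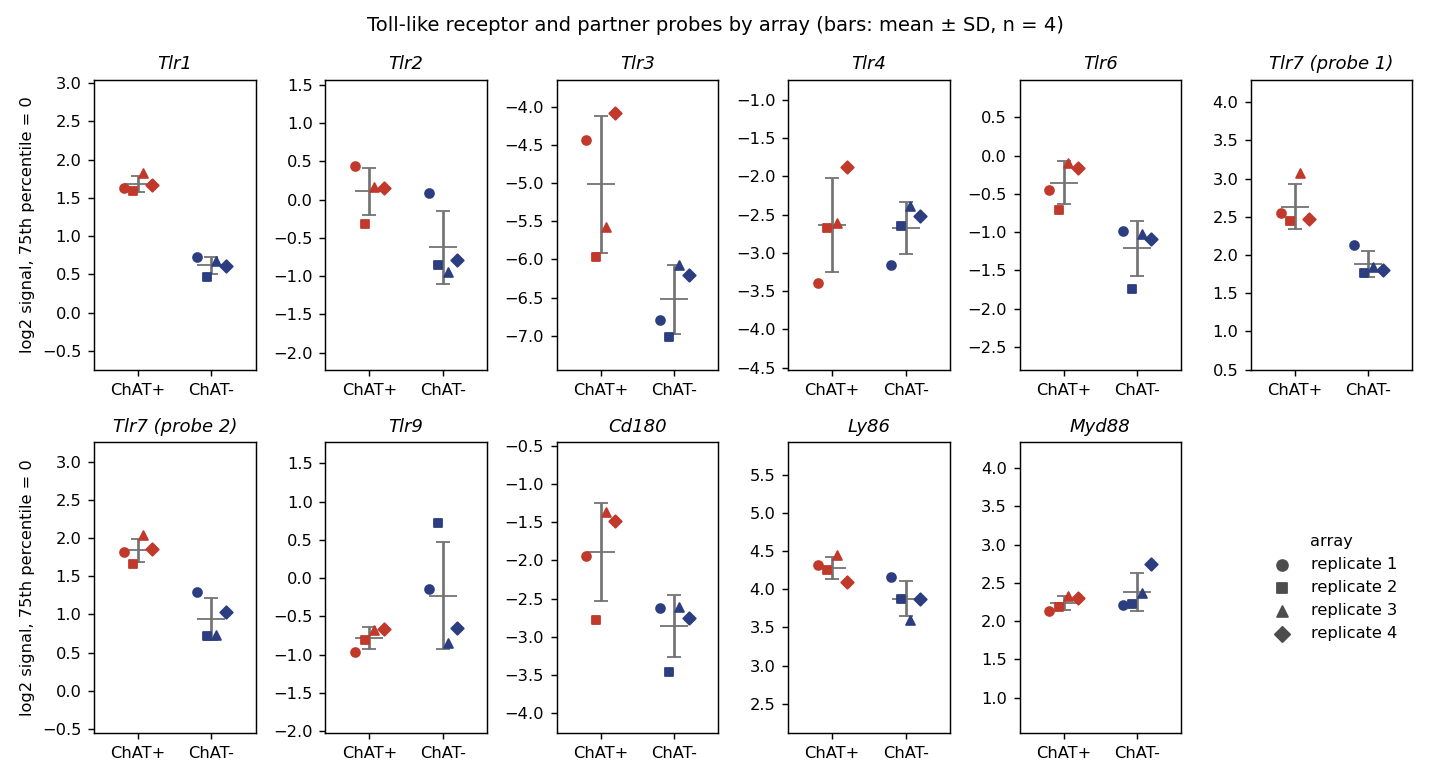
Log2 signal of the 11 member probes (vertical axes, 75th percentile of the array at 0, each panel 3.8 units high) in the 4 ChAT+ (left, red) and 4 ChAT- pools (right, blue), with marker shapes for replicates and bars for mean ± SD. The groups stand apart for Tlr1, Tlr3, Tlr6 and both Tlr7 probes, and overlap for the others. Tlr3 was well above background on 2 of 4 ChAT+ and 0 of 4 ChAT- arrays and was not tested. Among all genes tested, 9.37% stood apart with ChAT+ higher.

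Tlr4, the lipopolysaccharide receptor, had log2 signals of -3.39, -2.67, -2.61 and -1.88 in ChAT+ pools, against -3.16, -2.64, -2.39 and -2.51 in ChAT- pools. The ChAT+ pools spanned a range that enclosed all 4 ChAT- pools. The log2 fold change was 0.038 (SE 0.30, limma adjusted p = 0.955), with a 95% interval of -0.65 to 0.72, and its sign changed under normexp background correction (-0.043), so no direction is given. Its 2 spots per array differed with an SD of up to 0.74, in ChAT+ replicate 3, so this probe was measured less precisely than that of Tlr2.

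Tlr7, the endosomal receptor for single-stranded RNA, was measured by 2 probes, both higher in ChAT+ pools. The brighter probe had log2 signals of 2.54, 2.45, 3.07 and 2.46 in ChAT+ pools, against 2.14, 1.77, 1.84 and 1.80 in ChAT- pools. The other had 1.82, 1.66, 2.03 and 1.85 in ChAT+ pools, against 1.30, 0.71, 0.74 and 1.03 in ChAT- pools. Neither probe's groups overlapped, with gaps of 0.31 and 0.36, and both were highest in ChAT+ replicate 3 and, among ChAT- pools, in replicate 1. By the brighter probe the log2 fold change was 0.75 (SE 0.17, limma adjusted p = 0.038). In a fit over 32087 probes, of which 1.46% were called higher and 1.64% lower, limma gave that probe an adjusted p of 0.0578 and the other, with a log2 fold change of 0.90, one of 0.0333. With 1 array left out, the gene's call held without ChAT+ replicate 2 or ChAT- replicate 1 and was lost without any of the other 6 (adjusted p up to 0.104, without ChAT- replicate 4), and under median scaling its adjusted p was 0.0689. Among members in the fit over probes, Tlr1 was also called (adjusted p = 0.00813) and Tlr6 was not (0.0675).

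Tlr9, the endosomal receptor for CpG DNA, overlapped between the groups. It had log2 signals of -0.97, -0.82, -0.68 and -0.66 in ChAT+ pools, against -0.14, 0.72, -0.84 and -0.65 in ChAT- pools. The SD was 0.14 in ChAT+ and 0.70 in ChAT- pools, and ChAT- replicate 2 was the highest of all 8. The log2 fold change was -0.55 (SE 0.31, limma adjusted p = 0.30), with a 95% interval of -1.25 to 0.14, and -0.24 without ChAT- replicate 2.

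Tlr3, the endosomal receptor for double-stranded RNA, was well above background on 2 of 4 ChAT+ and 0 of 4 ChAT- arrays and was left out of the test. Its log2 signals were -4.44, -5.97, -5.57 and -4.08 in ChAT+ pools, against -6.80, -7.01, -6.08 and -6.21 in ChAT- pools. The means were -5.02 in ChAT+ and -6.52 in ChAT- pools, and no fold is given, since 2 ChAT+ pools were not well above background either. With no filter on dim probes its adjusted p was 0.134, so the difference was not called.

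Cd180 and Ly86, which encode the RP105 and MD-1 complex, had higher means in ChAT+ pools and did not pass the test. Cd180 had log2 signals of -1.94, -2.78, -1.37 and -1.48 in ChAT+ pools, against -2.63, -3.46, -2.62 and -2.75 in ChAT- pools. The groups overlapped through ChAT+ replicate 2 alone, and the log2 fold change was 0.97 (SE 0.32, limma adjusted p = 0.109, 95% interval 0.24 to 1.70). Without that array it was 1.27 (adjusted p = 0.0285), past the threshold. With same-numbered pools as blocks, limma also called Cd180 (adjusted p = 0.00728), though the sources do not say that the numbers pair the pools. Ly86 had log2 signals of 4.32, 4.25, 4.45 and 4.09 in ChAT+ pools, against 4.15, 3.87, 3.59 and 3.87 in ChAT- pools. ChAT- replicate 1 lay above ChAT+ replicate 4, and the log2 fold change was 0.40 (SE 0.15, limma adjusted p = 0.132, 95% interval 0.07 to 0.73). Under quantile normalization it was 0.49 and called (adjusted p = 0.0351).

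Myd88, the adaptor that links most of these receptors to IRAK kinases, was close in the 2 groups. It had log2 signals of 2.13, 2.19, 2.33 and 2.30 in ChAT+ pools, against 2.21, 2.22, 2.36 and 2.74 in ChAT- pools. ChAT- replicate 4 was the highest of the 8 pools, and the other 7 interleaved. The log2 fold change was -0.15 (SE 0.14, limma adjusted p = 0.565), and 0.069 under median scaling, so no direction is given. The 95% interval of -0.47 to 0.18 bounds the difference on either side. Its 10 spots per array (9 used on 2 ChAT- arrays) had an SD of 0.022 to 0.12 within an array.

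**Figure D2:**
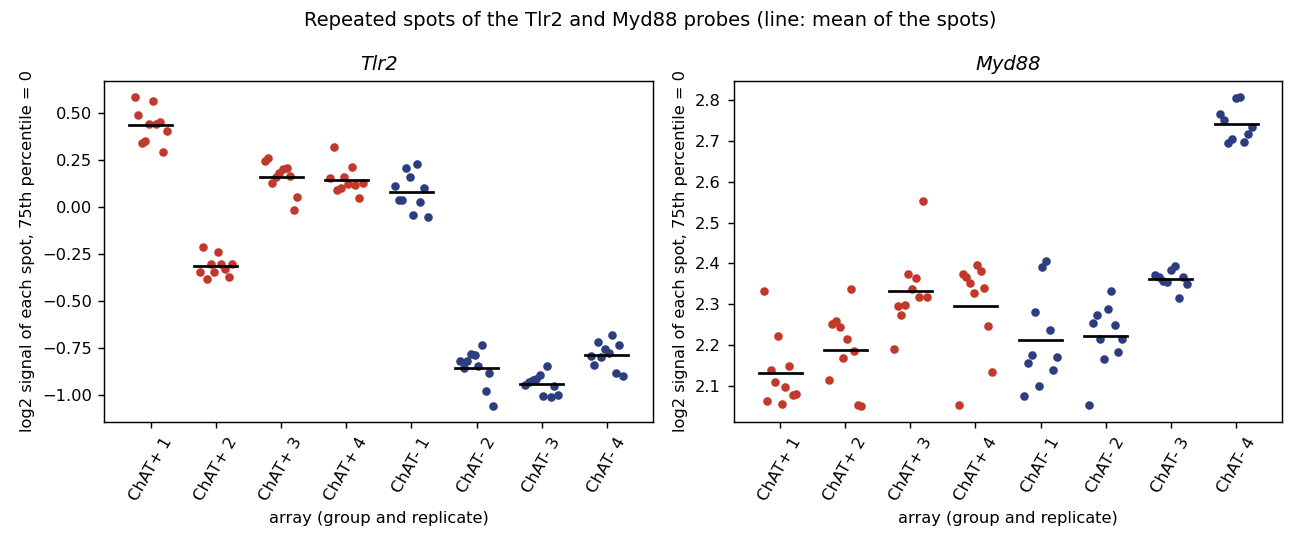
Log2 signal of each repeated spot (vertical axes) of the Tlr2 and Myd88 probes on the 8 arrays (horizontal axes, ChAT+ in red, then ChAT- in blue), with a line at the mean of the spots. For Tlr2, ChAT- replicate 1 stands above ChAT+ replicate 2 by more than its spots scatter, and for Myd88, ChAT- replicate 4 stands above the other 7 arrays.

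Over the 9 members tested, each well above background on all 8 arrays, the median log2 fold change was 0.73, beside 0.025 over all genes tested. The groups did not overlap, with ChAT+ higher, for 3 of the 9 members, and with ChAT+ lower for 0, beside 9.37% higher and 6.14% lower among all genes. At an unadjusted p under 0.05, 6 members were higher and 0 lower, and 12.9% of all genes were higher at that level. These counts describe a list whose members share pools, so they are not independent of each other. The list was also chosen with earlier results of these data known, so the all-gene shares beside it are no test of it.

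**Figure D3:**
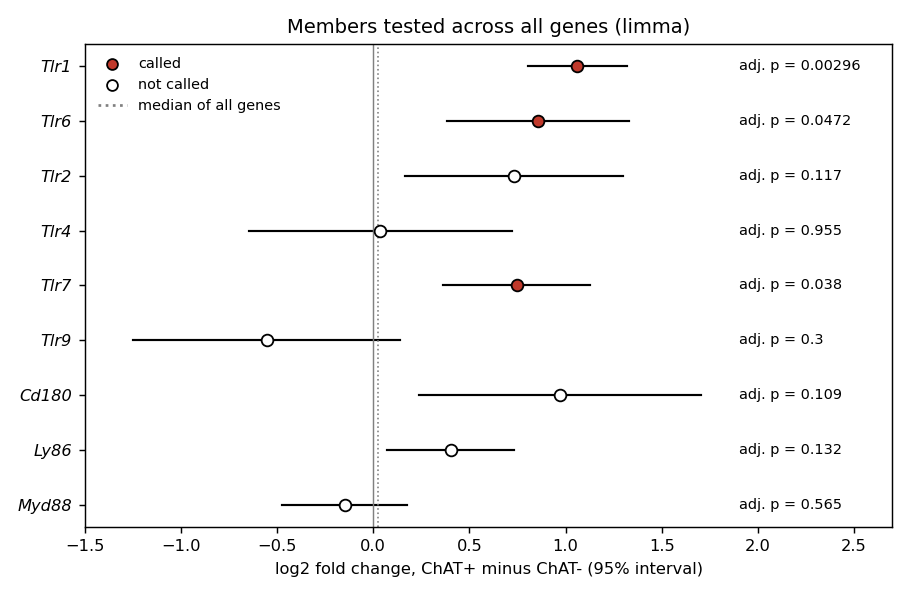
Log2 fold change of ChAT+ minus ChAT- (horizontal axis) with its 95% interval for the 9 members tested, filled red where called, with adjusted p at the right and the median of all genes as a dotted line. The called members lie between 0.75 and 1.06.

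Within each group, some pools were low or high for most member probes. The counts below include both probes of Tlr7 and the dim probe of Tlr3, and no such count was made over all probes. ChAT+ replicate 2 was the lowest ChAT+ pool for 7 of the 11 member probes, and ChAT+ replicate 3 the highest for 7. Among ChAT- pools, replicate 2 was the lowest for 6 and replicate 1 the highest for 6. Tlr9 ran against this among ChAT- pools, where replicate 2 was its highest.

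**Figure D4:**
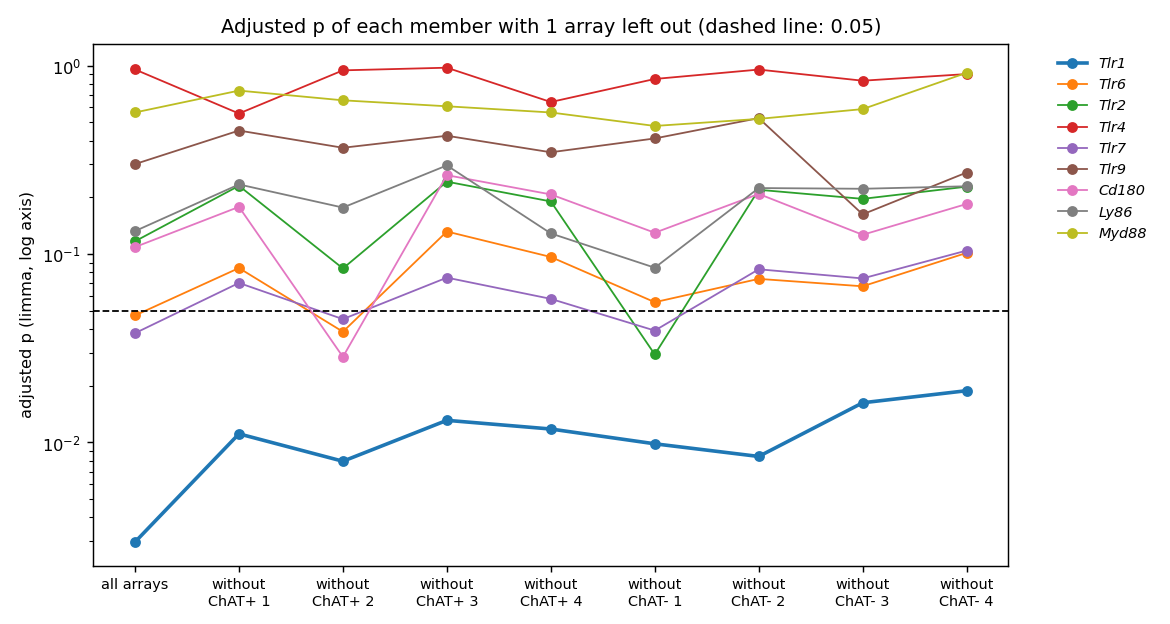
Adjusted p of the 9 tested members (vertical log axis, limma over all genes) with all arrays and with each array left out (horizontal axis), with the 0.05 threshold dashed. Lines only join the points of a gene. Tlr1 stays below 0.05 throughout, while Tlr6, Tlr7, Tlr2 and Cd180 cross it depending on the array.

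The profile of Tlr1, each gene centred on its own mean over the 8 arrays, was nearest to those of Mpzl1, Arhgef11, Mtap, Gbp6 and Zfp608, in that order. Their root mean square differences from it were 0.099 to 0.12 on the log2 scale. Mtap encodes an enzyme of methionine salvage and Gbp6 an interferon-inducible guanylate-binding protein. Among members, Tlr7 ranked 81st and Tlr6 91st nearest of 13607 genes, with differences of 0.21 and 0.22, whereas Tlr9 ranked 12091st. This distance includes the difference between the groups, so the ranks in part restate the fold changes.

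Of 74 tested genes from 5 further lists of the pathway, 7 rose and 0 fell, beside 2.81% of all genes called higher and 3.15% lower. Unadjusted, 13 of the 74 were higher and 4 lower at p under 0.05 (limma), beside 12.9% of all genes higher at that level. The share of all genes lower at that level was not counted. The median log2 fold change over the 74 was 0.13. The count of rises changed with the array left out. It was 0 without ChAT+ replicate 3 or 4 or ChAT- replicate 3 or 4, and 2 without ChAT+ replicate 1 or ChAT- replicate 2. It was 4 without ChAT+ replicate 2, where 1 gene was called lower, and 5 without ChAT- replicate 1. Over all genes, calls higher also dropped, from 383 with all arrays to between 81 and 310 with 1 array left out.

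Of 11 tested co-receptors and chaperones, 2 rose and 0 fell, with a median log2 fold change of 0.40. Ly96, which encodes the MD-2 partner of TLR4, had log2 signals of 1.40, 1.80, 1.55 and 1.78 in ChAT+ pools, against 0.99, 1.13, 0.53 and 0.54 in ChAT- pools. The groups did not overlap. It rose by 0.83 (SE 0.18, limma adjusted p = 0.0312), while Tlr4 itself did not pass the test. Cd36, which encodes a scavenger receptor listed here among the co-receptors, rose by 1.45 (SE 0.35, adjusted p = 0.0443). Unc93b1, the chaperone that carries TLR3, TLR7 and TLR9 to endosomes, was at 0.63 (adjusted p = 0.0691), not called, and was named after its values were seen.

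Of 20 tested adaptors and proximal kinases, 2 rose and 0 fell, with a median of 0.10. Btk, a kinase of B cell receptor and Toll-like receptor signalling, rose by 1.19 (SE 0.27, limma adjusted p = 0.0384). In the fit over probes, neither of its 2 probes was called (1.19, adjusted p = 0.0563, and 1.30, 0.0586). Irak3, which encodes the inhibitory kinase-like protein IRAK-M, rose by 1.02 (SE 0.24, adjusted p = 0.0427). Of 18 tested IKK, NF-kB and IRF genes, 1 rose and 0 fell, with a median of 0.16. This was Rel, the NF-kB subunit c-Rel of lymphocytes, which rose by 0.58 (SE 0.12, adjusted p = 0.0291).

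Of 23 tested target and feedback genes, 2 rose and 0 fell, with a median of 0.035. Cd86, a costimulatory ligand of antigen-presenting cells, rose by 0.89 (SE 0.20, limma adjusted p = 0.0387), and Il12a, which encodes the p35 subunit of interleukin 12, by 1.18 (SE 0.28, adjusted p = 0.0443). Of the 5 other receptors on the array, 2 were tested and 0 called by limma or at an unadjusted p under 0.05. These were Tlr13, at 0.20 (adjusted p = 0.744), and Tlr12, at -0.09 (0.741) and 0.12 under median scaling. Tlr5, Tlr8 and Tlr11 were well above background on 0 of 8 arrays. Each of the 7 called pathway genes lost its call in 5 to 7 of the 8 fits with 1 array left out. In the fit over probes, Ly96 (adjusted p = 0.0488) and Rel (0.0484) were called and the others, Cd36, Btk, Irak3, Cd86 and Il12a, were not.

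**Figure D5:**
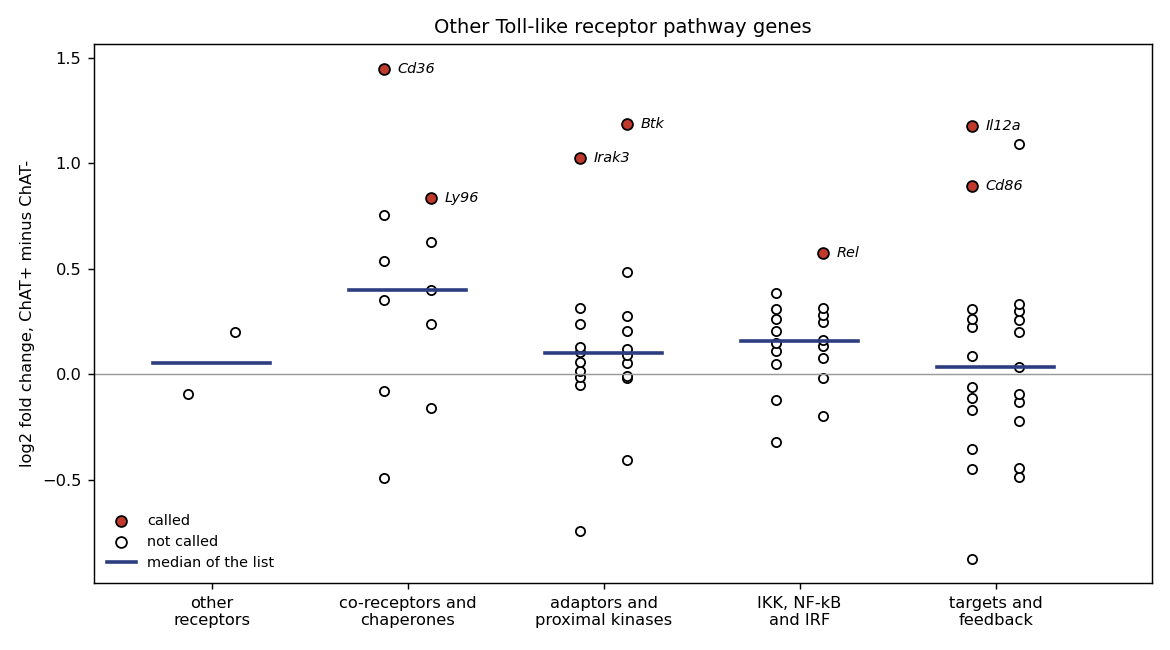
Log2 fold change of ChAT+ minus ChAT- (vertical axis) for 74 further pathway genes in 5 lists (horizontal axis), filled red and named where called, with a bar at each list's median. The 7 called genes all lie above 0, and the medians lie between 0.035 and 0.40.

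B cells and myeloid cells carry these receptors, so markers of such cells were read beside them. Over all genes tested, limma called 2.81% higher and 3.15% lower, and 12.9% were higher at an unadjusted p under 0.05. These shares apply beside the counts of every marker list below. Among 16 B cell markers tested, 6 rose, 0 fell, with a median of 0.54, led by Pax5 (1.31, limma adjusted p = 0.0039), Bank1 (1.12) and Ebf1 (1.03). The summed signal of all 16, in multiples of the 75th percentile of the array, was 145.7 to 188.8 in ChAT+ and 101.8 to 141.1 in ChAT- pools, without overlap, and all 16 were well above background in both groups. By pool it was 145.7, 162.8, 188.8 and 149.0 in ChAT+ and 141.1, 108.2, 101.8 and 126.6 in ChAT- pools. ChAT+ replicate 3 and ChAT- replicate 1, the highest pools of their groups for most member probes, also had the highest B cell sums of their groups. ChAT+ replicate 2, the lowest for 7 member probes, had the second highest B cell sum of the ChAT+ pools. The part of B cell transcripts in the rises of Tlr1, Tlr6 and Tlr7, and in the 7 pathway rises, was not tested.

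Of 9 tested macrophage and monocyte markers, 0 were called by limma, and unadjusted p-values under 0.05 went to 3 higher and 1 lower marker (median -0.09). Their summed signal over 12 genes on the array was 5.80 to 7.67 in ChAT+ and 6.58 to 8.85 in ChAT- pools. Csf1r, the receptor of macrophage growth factor, was at -0.29 (adjusted p = 0.312). The 3 higher markers were Spic (1.00, adjusted p = 0.108), Adgre1 (0.77, 0.158) and Ms4a7 (0.69, 0.0718). The lower marker was C1qa (-0.79, adjusted p = 0.14). These higher and lower markers were named after their values were seen. Mertk and C1qc were below the detection call on all 8 arrays, and Cd5l on the ChAT- arrays. Of 10 dendritic cell markers, 3 fell and 0 rose, with a median of -0.05 and, at unadjusted p-values under 0.05, 2 higher and 3 lower. Bst2 (0.74, adjusted p = 0.0784) and Tcf4 (0.48, 0.0752), named after their values were seen, were the 2 higher and were not called. Those that fell were Itgax (-1.31), Ccr9 (-2.50) and Clec9a, which was at least 2.16-fold lower and not well above background in ChAT+ pools, as were Cd209a and Clec10a. The dendritic list's summed signal was 62.2 to 88.6 in ChAT+ and 53.4 to 73.1 in ChAT- pools. Of 10 neutrophil markers, 3 fell, Mpo (-2.24), Cxcr2 (-0.96) and Retnlg, at least 3.68-fold lower, with sums of 32.6 to 59.5 in ChAT+ and 49.9 to 85.3 in ChAT- pools. Their median was -2.06, with 6 lower and 0 higher at an unadjusted p under 0.05 (limma). Elane and Retnlg were not well above background in ChAT+ pools.

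Of 8 tested basophil and mast cell markers, 6 fell, among them Hdc (-2.41), Cyp11a1 (-2.42) and Cd200r3, at least 15.9-fold lower. At an unadjusted p under 0.05 (limma), 8 of these markers were lower and 0 higher, with a median of -3.24. Their sum was 1.07 to 4.05 in ChAT+ and 9.66 to 45.2 in ChAT- pools, with Cd200r3 and Ms4a2 not well above background in ChAT+ pools. Of 14 NK markers, 3 fell, Klrb1c (-1.60), Klrk1 (-1.14) and Prf1 (-0.62), and 0 rose, beside 3.15% of all genes called lower. At an unadjusted p under 0.05 (limma), 12 of the 14 NK markers were lower and 0 higher, with a median of -0.57. Their sum was 200.5 to 301.8 in ChAT+ and 301.9 to 371.7 in ChAT- pools, and all 14 were well above background in both groups. Of 11 T cell markers, 0 were called by limma, and unadjusted p-values under 0.05 went to 1 higher and 1 lower marker, and Cd3d was at 0.057. Their sum was 18.5 to 33.1 in ChAT+ and 19.9 to 30.0 in ChAT- pools, with Themis below the detection call on all 8 arrays. The part of these cells in the values of the members was not tested.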

How the data were processed

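The authors' deposited scanner output gives each spot's intensity, linear, and 0 or 1 flags. Per the file headers, they were made with Agilent Feature Extraction 11.5.1.1, and the processed intensity is background-subtracted within the array and not scaled between arrays. Labelling started from 100 ng of RNA, amplified with Cy3, per the labels' protocols. The authors' deposited value table holds log2 values of 31942 probes. Each of its columns equalled log2 of the processed intensity less a constant within 0.0065 of the 75th percentile used here, so its scale and direction are settled, and its medians were -0.72 to -0.63.

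Left out were control spots and 1344 spot values marked as outliers, save where every spot of a probe was marked (51 probe values). The log2 spots of a probe were averaged and each array's 75th percentile, taken over 55681 probes without controls, subtracted. A RefSeq table of GRCm38.p6 named 26762 probes with 1 gene and 28919 with none. The arrays were annotated on an earlier assembly, so the only coordinates given are those of the RefSeq windows, on GRCm38.p6. The fit used the 32087 probes detected (well above background) on 4 or more of 8 arrays, and the brightest stood for its gene, leaving 13608 genes. A probe counted as well above background where at least 50% of its spots were. With arrays left out, the filter asked for at least 50% of those left. limma 3.58.1 in R 4.3.3 (lmFit, eBayes, two-sided, Benjamini-Hochberg over all genes) gave ChAT+ minus ChAT-, with no block. The number of arrays limits the precision. A bound ("at least N-fold") compares the brighter mean with the other group's detection limit, or its own signal where higher.

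The members and lists were chosen with earlier results of these data known. All members were named, with Chat, the called genes of 5 pathway lists (up to 6 each, otherwise the 2 brightest), up to 3 called genes of 7 marker lists (otherwise the one with the highest mean signal) and the 5 profiles nearest to the member with the smallest adjusted p. The procedure was tested on simulated data. There it recovered 65% of 2-fold and 91% of 4-fold changes, and 9.3% of its calls were false, above the threshold of 5%. Slide or scan could not be a block, since each held 1 group. Normexp took the median spot signal in place of a mean signal. The alternatives tried are in the closing section.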

Additional observations from a re-analysis of the deposited data

Results flagged for a closer look

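In 42 sets of 4 pools (21 probes or genes named above, in 2 groups), 5 had a pool far from the other 3 by Dixon's test, where chance flags about 1 in 20. ChAT- replicate 1 was high for Tlr2, at a log2 signal of 0.083. ChAT- replicate 2 was low for Tlr6, at -1.74, and for Cd180, at -3.46. ChAT+ replicate 3 was high for the brighter Tlr7 probe, at 3.07. ChAT+ replicate 2 was low for Cd36, at -1.66, against -0.55, -0.55 and -0.49 in the other ChAT+ pools. Left out in turn, these arrays gave log2 fold changes of 0.97 for Tlr2, 0.68 for Tlr6, 0.77 for Cd180, 0.60 for Tlr7 and 1.73 for Cd36.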

How the results depend on the processing

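Tlr1 stayed called in the 12 alternative fits and the 8 with an array left out, at log2 fold changes of 1.01 to 1.28. Members called higher numbered 1 (Tlr1) under median scaling, with no filter on dim probes, with a filter at 1 of 8 arrays, without both arrays numbered 3, and over the named probes, dim ones included, adjusted together, 5 with a replicate block, and 1 to 4 with single arrays left out. The pathway genes called higher numbered 4 under median scaling, 2 with a filter at 1 array, 0 with no filter, 0 over all named probes and 0 without both arrays numbered 3, and 0 to 5 with single arrays left out. Pathway genes called lower numbered 1 under normexp, 2 with the replicate block, and 0 to 1 with single arrays left out. No member was called lower in any alternative run (limma), where the main fit had 0 at an unadjusted p under 0.05. Over all genes, 383 were called higher and 428 lower, against 211 and 119 under median scaling, 98 and 125 with no filter, 577 and 639 with array weights, 1002 and 1340 with the replicate block, 26 and 37 without both arrays numbered 3, and 81 to 310 and 78 to 439 with single arrays left out. Median scaling moved the median of all genes to 0.24, against 0.025, and turned the signs of Myd88 (0.069) and Tlr12 (0.12). Tlr4 turned under normexp (-0.043), array weights (-0.13), and without ChAT+ replicate 4 (-0.22) or ChAT- replicate 1 (-0.12), Tlr13 without ChAT+ replicate 1 (-0.035), and Tlr12 without ChAT- replicate 4 (0.0038). With single arrays left out, Tlr4 ranged from -0.22 to 0.29, Tlr13 from -0.035 to 0.46 and Tlr12 from -0.18 to 0.0038. The causes were not tested. Deviations of same-numbered pools correlated at 0.54, 0.66, 0.52 and 0.03 for numbers 1 to 4, across genes. Those of pools with unlike numbers correlated at -0.55 to 0.40. Whether same-numbered pools shared mice or preparation was not given, and the main fit did not pair them. ChAT+ replicate 4 and ChAT- replicate 4 did not correlate best with their own number, and the replicate block added Tlr2 (limma adjusted p = 0.0197) and Cd180 (0.00728) to the members called, making 5. A block for slide or scan was not run, as each held 1 group. Under quantile normalization 3 members were called, Tlr1, Tlr7 and Ly86 (adjusted p = 0.0351), while Tlr6 was not (0.0593). Normexp, the filter at all 8 arrays, averaged probes, a trended and robust variance, array weights, the deposited table and a threshold of 0.10 each called Tlr1, Tlr6 and Tlr7.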
